A study of Rattus norvegicus with 44 samples.

Results

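The Cyp3a family of cytochrome P450 enzymes was followed through 4 genes, Cyp3a9, Cyp3a18, Cyp3a23-3a1 and Cyp3a2, in rats dosed with crude 4-methylcyclohexanemethanol (MCHM), a coal-washing alcohol mixture. A gene was taken where a probe set of the array is annotated to it and to no other gene. Each of the 4 genes had 1 such probe set, out of 31042 probe sets tested, which name 14217 genes in all. RNA of liver (27 arrays) and kidney (17 arrays) of male Harlan Sprague Dawley rats was measured on the Affymetrix Rat Genome 230 2.0 array. The rats, 6 to 8 weeks old when allotted to groups, were gavaged on 5 days in a row with MCHM in corn oil at 5 mL/kg and were killed a day after the last dose. The liver groups were vehicle (corn oil with 0 mg/kg, 4 arrays), 0.1 mg/kg (3 arrays), and 4 arrays each at 1 mg/kg, 10 mg/kg, 100 mg/kg, 300 mg/kg and 500 mg/kg. The kidney groups held 3 arrays at vehicle, 300 and 500 mg/kg and 2 arrays at each of 0.1, 1, 10 and 100 mg/kg. All groups, vehicle included, share the corn oil and the gavage. The submitters removed arrays with batch effects before deposit. The labels call the arrays of a group biological replicates, and their number limits the precision of every value.

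P450 enzymes of the 3A subfamily sit in the membrane of the endoplasmic reticulum of hepatocytes and enterocytes and oxidise steroids, bile acids and a wide range of drugs. Their genes are the classical targets of the pregnane X receptor (PXR, gene Nr1i2), a nuclear receptor that binds foreign chemicals and steroids and acts on DNA together with a retinoid X receptor. In rat liver Cyp3a23-3a1 is the form known for its induction by dexamethasone and pregnenolone carbonitrile, Cyp3a2 is a male-biased form of the adult, Cyp3a18 is also higher in males, and Cyp3a9 is a female-biased form that is also found outside the liver.

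The 4 genes lie on chromosome 12 of the RefSeq annotation of rat assembly GRCr8. Cyp3a18, Cyp3a2 and Cyp3a23-3a1 lie in the same region, with gene bodies at chr12:13994312-14044185, chr12:14321771-14343886 and chr12:14369950-14398803. Among the Cyp3a genes, Cyp3a2 and Cyp3a23-3a1 are next to each other, while Cyp3a73, Cyp3a2l1 and Cyp3a71-ps lie between Cyp3a18 and Cyp3a2. Cyp3a9 lies farther along, at chr12:21919955-21960160. The annotation lists 8 Cyp3a genes, and the 4 others (Cyp3a62, Cyp3a73, Cyp3a2l1 and Cyp3a71-ps) have no probe set of their own in the platform annotation. The genes are similar in sequence, and the probes were not checked here for binding of RNA from a relative, so the signal of a probe set may hold some of another Cyp3a transcript.

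The sequences before the gene starts are shown because Cyp3a genes are known as PXR targets. Whether PXR acts on these 4 sequences, or had a part in the changes below, was not tested. RefSeq windows for all 4 genes were matched, and the 250 bases before each start were searched on both strands for pairs of the half-site AGNTCA. The pairs were a direct repeat with 3 bases between the copies (DR3), a direct repeat with 4 bases between (DR4), and TGANCT followed after 6 bases by AGNTCA (ER6, an everted repeat). The sequences below run 5′ to 3′ on the strand of each gene, with matches to these motifs in capitals. The windows are chr12:14398804-14399053 (minus strand) for Cyp3a23-3a1, chr12:14343887-14344107 (minus strand) for Cyp3a2, chr12:13994062-13994311 (plus strand) for Cyp3a18 and chr12:21960161-21960410 (minus strand) for Cyp3a9. For Cyp3a2 the 29 bases nearest the start are not shown, since they lie inside the annotated gene.
Cyp3a23-3a1: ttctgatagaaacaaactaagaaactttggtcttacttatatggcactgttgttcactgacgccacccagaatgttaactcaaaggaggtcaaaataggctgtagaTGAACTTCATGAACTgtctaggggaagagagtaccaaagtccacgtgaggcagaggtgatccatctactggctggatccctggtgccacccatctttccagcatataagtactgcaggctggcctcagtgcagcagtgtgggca
Cyp3a2: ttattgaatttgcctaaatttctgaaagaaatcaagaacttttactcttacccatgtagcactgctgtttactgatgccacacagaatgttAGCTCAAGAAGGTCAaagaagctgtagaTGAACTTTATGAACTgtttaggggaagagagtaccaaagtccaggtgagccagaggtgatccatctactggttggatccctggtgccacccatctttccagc
Cyp3a18: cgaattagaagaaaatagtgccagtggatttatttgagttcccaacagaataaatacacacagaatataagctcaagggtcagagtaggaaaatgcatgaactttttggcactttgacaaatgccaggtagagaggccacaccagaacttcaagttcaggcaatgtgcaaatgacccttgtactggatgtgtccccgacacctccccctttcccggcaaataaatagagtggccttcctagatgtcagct
Cyp3a9: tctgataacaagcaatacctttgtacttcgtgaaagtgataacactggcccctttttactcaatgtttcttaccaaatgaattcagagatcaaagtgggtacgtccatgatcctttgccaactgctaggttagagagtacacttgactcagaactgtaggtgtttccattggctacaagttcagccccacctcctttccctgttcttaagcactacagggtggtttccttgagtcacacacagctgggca

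The Cyp3a23-3a1 window held 1 DR3 match, TGAACTTCATGAACT, at positions -144 to -130 counted from the start. The Cyp3a2 window held 2 DR3 matches that do not overlap, AGCTCAAGAAGGTCA at -159 to -145 and TGAACTTTATGAACT at -131 to -117. Neither the Cyp3a18 nor the Cyp3a9 window held a match to any of the 3 motifs within these 250 bases. DR3 matches were present in 0.06% of 33469 rat windows of this length, DR4 in 0.05%, ER6 in 0.03%, and any of the 3 in 0.14%. A match is a run of letters and not a measured binding site. Aligned end to end, the 250-base windows of Cyp3a23-3a1 and Cyp3a2 were identical at 79.2% of positions, and the other 5 pairs were identical at 50.4% to 57.3%.

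Vehicle replicate 2 of each organ and 1 kidney array stood apart from the others. Xist, the RNA of the inactive X chromosome, read 8.25 to 11.00 over its 4 probe sets in liver vehicle replicate 2, against 2.29 to 3.47 in the 26 other liver arrays. It read 6.95 to 9.33 in kidney vehicle replicate 2, against 2.16 to 3.02 in the 16 other kidney arrays. The Y-linked gene Eif2s3y was also high in both, at 9.26 and 10.02, so these samples, labelled male, carried both signals. Kidney 1 mg/kg replicate 1 held 54 probe sets that were at least 1 log2 unit above all other kidney arrays, and 52 of these averaged above 10 in liver. In that array 6 of the 7 measured hepatocyte markers, Alb, Ttr, Apoa1, Serpina1, Fgb and Ahsg, exceeded all other kidney arrays, with Alb at 11.06 against at most 5.86. Apob did not. The correlation of any 2 arrays over all probe sets was 0.989 to 0.994 within liver, and within kidney it was 0.984 to 0.996.

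All values are RMA expression values on a log2 scale, on which a difference of 1 is a doubling. In liver, Cyp3a2 was the brightest of the 4 probe sets, with a mean of 13.81 over 27 arrays that lay above 99.9% of all probe sets. Cyp3a23-3a1 averaged 12.70 and Cyp3a18 averaged 12.47, above 99.5% and 99.3% of probe sets. Cyp3a9 averaged 8.59, above 88.5%. The highest value in the whole table was 14.85. Signals of different probe sets depend on their probes, so these ranks describe brightness on the array and not the order of transcript abundance. RNA of a whole tissue cannot tell fewer cells of a type from less RNA per cell.

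At 500 mg/kg, 3 of the 4 genes rose in liver. Cyp3a9 read 9.83, 9.26, 9.62 and 9.56 in the 500 mg/kg livers, against 8.48, 7.63, 7.21 and 7.95 in vehicle livers. Every 500 mg/kg liver stood above every vehicle liver, and the vehicle livers themselves spread over more than 1 log2 unit. The mean was 9.57 ± 0.23 at 500 mg/kg and 7.82 ± 0.54 in vehicle (SD, n = 4 each), a log2 difference of 1.75 (SE 0.32, 3.36-fold). The limma fit of the 7 liver groups gave it an adjusted p of 0.0224 over all 31042 probe sets.

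Cyp3a23-3a1, the classical PXR-induced form, read 13.09, 13.26, 13.15 and 13.28 at 500 mg/kg, against 12.90, 12.46, 12.12 and 12.70 in vehicle livers. Again the groups did not overlap, and vehicle replicate 1 came nearest to the dosed livers. The log2 difference was 0.65 (SE 0.13, 1.57-fold, limma adjusted p = 0.0306).

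Cyp3a18 read 12.85, 13.00, 12.71 and 12.97 in 500 mg/kg livers, against 12.62, 12.25, 12.13 and 12.36 in vehicle livers. Its lowest dosed liver and its highest vehicle liver were 12.71 and 12.62, so the groups parted by a small gap. The log2 difference was 0.55 (SE 0.11, 1.46-fold, limma adjusted p = 0.0291).

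Cyp3a2 read 13.77, 13.90, 13.93 and 13.86 at 500 mg/kg, against 13.86, 13.74, 13.73 and 13.71 in vehicle livers. These ranges overlapped. The difference was 0.10 (SE 0.06, 95% interval -0.02 to 0.23, limma adjusted p = 0.673), so the interval for this gene reaches 0.23. Its SD within the liver groups was 0.04 to 0.07. Its values lie near the top of the table's range, and whether its probes were saturated was not tested.

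Over all probe sets, 0.119% were called higher at 500 mg/kg in liver (37 of 31042) and 0.058% were called lower, against which 3 of the 4 Cyp3a genes were called higher and 0 lower. All 4 dosed livers lay above all 4 vehicle livers in 3.4% of probe sets, and in 3 of the 4 Cyp3a genes. The median difference of the 4 genes was 0.60, beside 0.01 over all 14217 genes.

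**Figure D1:**
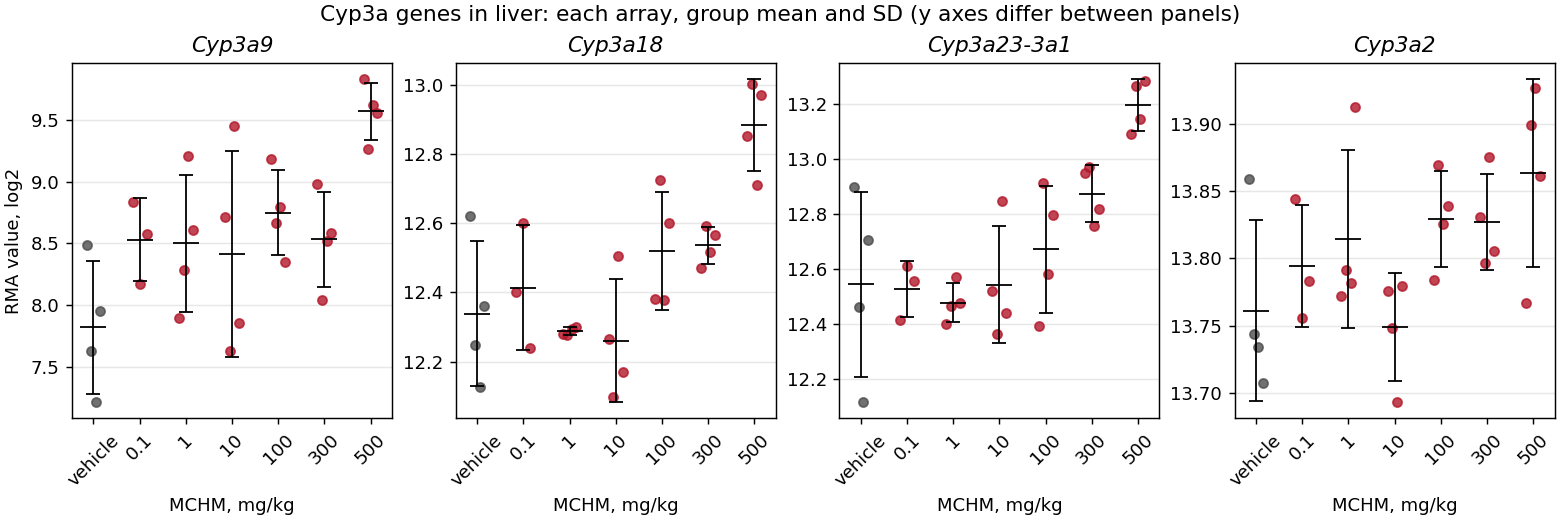
RMA values (log2, y axis, scaled separately for each gene) of the 4 Cyp3a genes in every liver array by MCHM dose (x axis, vehicle and 0.1 to 500 mg/kg). Points are arrays, the long dash is the group mean and the bar is 1 SD. For Cyp3a9, Cyp3a18 and Cyp3a23-3a1 the 4 arrays at 500 mg/kg all lie above the vehicle arrays, while for Cyp3a2 they overlap.

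These 3 calls depended on the arrays kept. Each difference kept its sign when any of the 8 arrays was left out, at 1.55 to 1.97 for Cyp3a9, 0.48 to 0.64 for Cyp3a18 and 0.51 to 0.77 for Cyp3a23-3a1. Without vehicle replicate 2, the array with Xist signal, the differences were 1.69, 0.51 and 0.62 and the limma adjusted p values were 0.0772 for Cyp3a9, 0.107 for Cyp3a18 and 0.113 for Cyp3a23-3a1. None of the 3 passed without vehicle replicate 3 (Cyp3a9 adjusted p = 0.112) or 4 (0.0649), or without 500 mg/kg replicate 1 (0.0664) or 4 (0.0769). Without 500 mg/kg replicate 2 only Cyp3a9 passed (adjusted p = 0.0349), and without replicate 3 only Cyp3a18 (0.0382). Without vehicle replicate 1, the highest vehicle array for all 3 genes, all 3 passed, at 0.00482 to 0.00573. The share of all probe sets called without that array is not given here. A limma fit of only the 500 mg/kg and vehicle livers called none of them (Cyp3a9 adjusted p = 0.0523).

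Markers of other cells also differed at 500 mg/kg. The 9 stellate cell and fibroblast markers were all lower in dosed livers by the fitted difference, with a median of -0.37. None passed the test in limma. An unadjusted p below 0.05 was seen in 4 of the 9 (7 of the 9 at 300 mg/kg), beside 8.99% of all probe sets at 500 mg/kg and 9.83% at 300 mg/kg. Their mean level was 7.03 to 7.34 in the 500 mg/kg livers and 7.38 to 7.87 in the vehicle livers. The 7 hepatocyte markers had a median difference of -0.06 with 1 above vehicle, and 1 had an unadjusted p below 0.05. Their mean levels were 13.89 to 13.98 at 500 mg/kg and 13.99 to 14.03 in vehicle. These levels lie near the highest value in the table, 14.85, and saturation of their probes was not tested. The 5 cholangiocyte markers (median -0.25) and the 6 lymphocyte markers (median -0.21) were also all lower by the fitted difference. The 6 macrophage markers had a median of -0.21 with 2 above vehicle, and the 5 endothelium markers one of -0.14 with 1 above. At an unadjusted p below 0.05 the counts were 0, 2, 3 and 0 for these 4 lists in that order. Of the lymphocyte markers, 1 passed the test: Jchain, the joining chain of secreted antibodies, was lower by a log2 difference of -0.81 (SE 0.17, limma adjusted p = 0.0472), among the 0.058% of probe sets called lower. It is named here after its value was seen. The part of these marker levels in the Cyp3a differences was not tested.

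The size of the rise was compared between members at 500 mg/kg, a comparison chosen with the larger rise of Cyp3a9 already known. Within each liver the Cyp3a9 value was set against that of another member, which gives the change of one relative to the other. Relative to Cyp3a23-3a1, Cyp3a9 stood at -4.00 to -3.26 in the 500 mg/kg livers and at -4.90 to -4.41 in vehicle livers, so its log2 change was larger by 1.10. It was larger by 1.20 relative to Cyp3a18 and by 1.65 relative to Cyp3a2. In each of the 3 comparisons no 500 mg/kg liver overlapped a vehicle liver, and the two-sided exact permutation p was 0.0286, the smallest that 70 splits of 4 and 4 arrays allow. Adjusted over the 3 pairs it was again 0.0286. The 3 comparisons share the same Cyp3a9 values, so they are not independent of each other. Since they were chosen with the rise known, their p values do not test it afresh. These are differences on the array's log2 scale, where Cyp3a9 is the dimmest of the 4 probe sets and Cyp3a2 is near the top of the range.

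At 300 mg/kg none of the 4 genes passed the limma test, and 2 had an unadjusted p below 0.05, as did 9.83% of all probe sets. Over all probe sets 0.122% were called in either direction at this dose. Cyp3a23-3a1 read 12.95, 12.97, 12.76 and 12.82 in the 300 mg/kg livers, above 3 of the 4 vehicle livers each and partly below vehicle replicate 1 at 12.90. Its log2 difference was 0.33 (SE 0.13, adjusted p = 0.381). Cyp3a9 read 8.98, 8.04, 8.52 and 8.59, a difference of 0.71 (SE 0.32, adjusted p = 0.464). Cyp3a18 differed by 0.20 (adjusted p = 0.567) and Cyp3a2 by 0.07 (adjusted p = 0.796).

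Set directly against 300 mg/kg, the 500 mg/kg livers were higher by 1.04 for Cyp3a9, 0.35 for Cyp3a18, 0.32 for Cyp3a23-3a1 and 0.04 for Cyp3a2. None of these passed in limma (adjusted p = 0.354 to 0.933), while 3 of the 4 had an unadjusted p below 0.05, beside 7.91% of all probe sets. In that comparison 0.00644% of all probe sets were called (2 of 31042). For Cyp3a23-3a1 the lowest 500 mg/kg liver, at 13.09, lay above all other liver arrays, which reached 12.97. For Cyp3a9 the lowest 500 mg/kg liver, at 9.26, lay below 10 mg/kg replicate 3 at 9.45, and for Cyp3a18 the lowest, at 12.71, lay just below 100 mg/kg replicate 2 at 12.72.

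From 0.1 to 100 mg/kg limma called 0% of all probe sets at each dose in liver, and none of the 4 genes. At an unadjusted p below 0.05 the counts over all probe sets were 1582, 1565, 1724 and 1872 at 0.1, 1, 10 and 100 mg/kg. Of the 4 genes, Cyp3a9 alone reached an unadjusted p below 0.05 there, at 1 mg/kg (limma adjusted p = 0.985) and at 100 mg/kg (limma adjusted p = 0.654).

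Cyp3a9 averaged 7.82 in vehicle livers and 8.53, 8.50, 8.41, 8.75 and 8.53 at 0.1, 1, 10, 100 and 300 mg/kg. These group means were all above vehicle with no order by dose, each overlapped its neighbour in the order of means from vehicle to 100 mg/kg, and all are set against the same 4 vehicle arrays. At 10 mg/kg the 4 livers spread from 7.63 to 9.45, wider than the vehicle group. Cyp3a23-3a1 averaged 12.55 in vehicle and 12.53, 12.48, 12.54 and 12.67 at 0.1, 1, 10 and 100 mg/kg, close to vehicle throughout. Cyp3a18 averaged 12.34 in vehicle and 12.41, 12.29, 12.26 and 12.52 at those doses. Cyp3a2 group means from vehicle to 500 mg/kg lay between 13.75 at 10 mg/kg and 13.86 at 500 mg/kg, and every group overlapped its neighbour in the order of means.

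**Figure D2:**
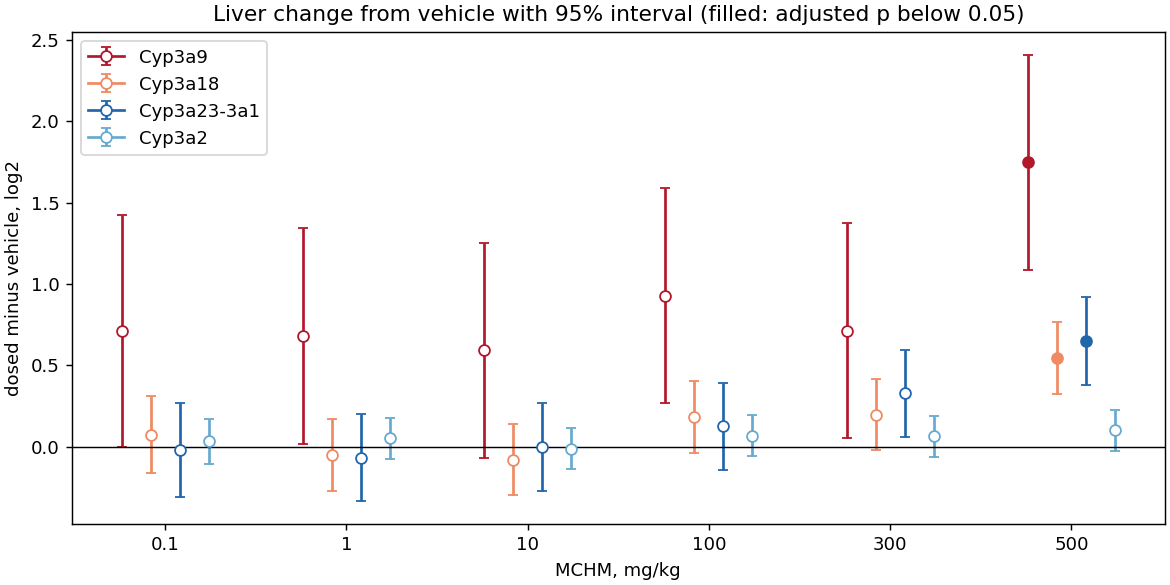
Log2 difference of each dose from vehicle in liver (y axis) for the 4 Cyp3a genes by MCHM dose in mg/kg (x axis), with 95% intervals from limma. Filled points passed an adjusted p of 0.05, which happened only at 500 mg/kg, for Cyp3a9 (1.75), Cyp3a23-3a1 (0.65) and Cyp3a18 (0.55).

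A slope over the dose levels, numbered 0 for vehicle to 6 for 500 mg/kg, passed for 1 of the 4 genes. Cyp3a23-3a1 rose by 0.10 log2 units per level (SE 0.02, limma adjusted p = 0.0233). Slopes passed as higher in 0.168% of all probe sets. Cyp3a18 had a slope of 0.08 per level (adjusted p = 0.0527) and Cyp3a9 one of 0.20 (adjusted p = 0.057), neither passing, and Cyp3a2 one of 0.01 (adjusted p = 0.532). The slope of Cyp3a23-3a1 no longer passed without 500 mg/kg replicate 1 (adjusted p = 0.0515), 3 (0.0599) or 4 (0.094), or without vehicle replicate 3 (0.0606). Without vehicle replicate 1, 3 of the 4 genes passed. With the dose in mg/kg in place of the level, Cyp3a9 (limma adjusted p = 0.0365), Cyp3a18 (0.000991) and Cyp3a23-3a1 (0.000272) all passed. The share of all probe sets that passed in these alternative fits is not given here, so these calls cannot be set against it.

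Across the 27 liver arrays the members varied together to different degrees. Cyp3a18 and Cyp3a23-3a1 were the closest of the 6 pairs, with Pearson r = 0.92 (permutation p = 1e-05, the smallest the resamples can give, 6e-05 adjusted over the pairs) and Spearman rho = 0.86 (1e-05, adjusted 6e-05). It was 0.88 without the 2 arrays farthest from the median of Cyp3a18 and 0.82 for deviations from the means of the dose groups, so the pair also moved together among livers of 1 dose.

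Cyp3a9 correlated with Cyp3a18 at r = 0.65 (permutation p = 0.00019, adjusted 0.00056; rho 0.60, p = 0.00125, adjusted 0.00366). With Cyp3a23-3a1 it correlated at r = 0.66 (permutation p = 0.00028, adjusted 0.00056; rho 0.58, p = 0.00183, adjusted 0.00366). Within dose groups these values were 0.32 and 0.43, and without the 2 arrays farthest from the Cyp3a9 median they were 0.56 and 0.55. The 3 pairs with Cyp3a2 had r between 0.40 and 0.50 (permutation p adjusted over the pairs 0.0114 to 0.0365) and rho between 0.43 and 0.56 (0.00459 to 0.0266). Their r was 0.36 to 0.44 without the 2 farthest arrays and 0.03 to 0.17 within dose groups. Arrays of 1 dose share their treatment, so the pooled values hold the difference between doses. The permutations shuffled arrays across doses, so their p values hold it too. The values within dose groups carry no test.

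**Figure D3:**
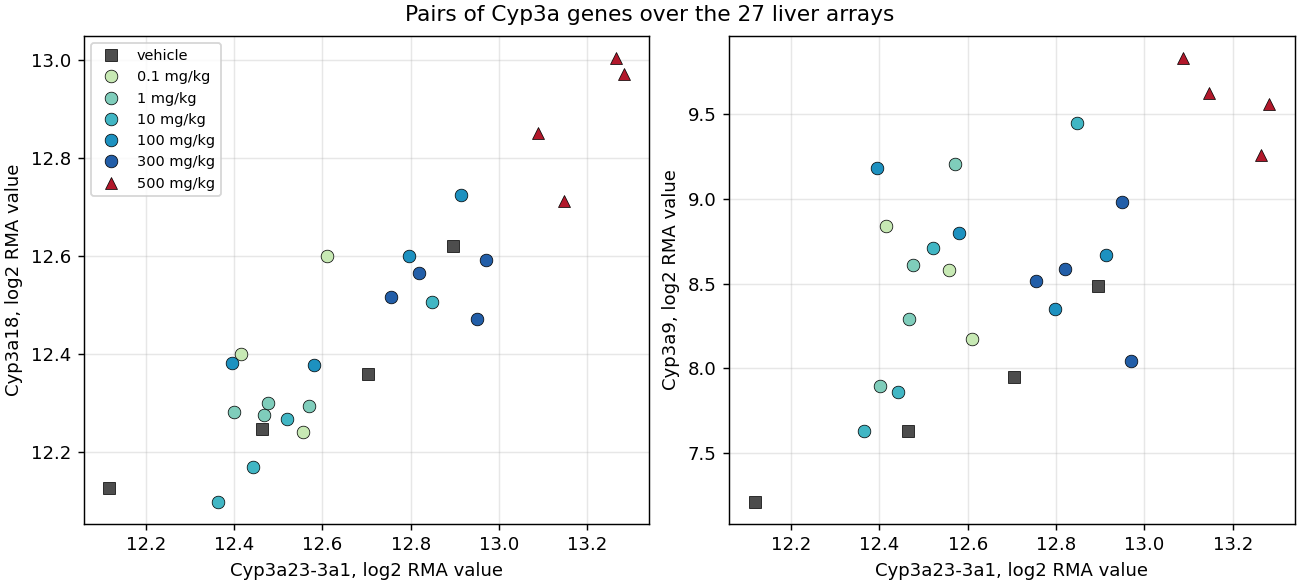
Cyp3a18 (left, y axis) and Cyp3a9 (right, y axis) against Cyp3a23-3a1 (x axis), as log2 RMA values in each of the 27 liver arrays, marked by dose. The left pair follows a narrow band (r = 0.92) with the 4 arrays at 500 mg/kg at its upper end, and the right pair scatters more widely (r = 0.66).

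The genes whose liver pattern was most like each member were found by Pearson r over the 27 arrays. For Cyp3a23-3a1 they were Gstk1 (r = 0.90), a glutathione transferase of mitochondria and peroxisomes, Mecr (0.89), a reductase of mitochondrial fatty acid synthesis, and Suclg1 (0.82), a subunit of succinyl-CoA ligase. For Cyp3a18 they were Adss1 (0.84), an adenylosuccinate synthase, Mecr again (0.82) and Abhd1 (0.82). Cyp2c6v1, a P450 (0.78), the alanine transaminase Gpt (0.76) and the proteasome subunit Psma6 (0.75) were nearest to Cyp3a9. For Cyp3a2 the closest were Dgat2 (0.72), which makes triglycerides, Fbxo31 (0.72) and Mtdh (0.69). Within dose groups the 12 values were 0.39 to 0.74. They were picked as the highest of all genes and carry no test.

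The other P450 genes of families 1 to 4 gave a wider frame at 500 mg/kg in liver. Of 38 measured, 1 passed the limma test and rose, beside 0.119% of all probe sets called higher. An unadjusted p below 0.05 was seen in 10 of the 38, beside 8.99% of all probe sets. The gene that passed was Cyp4a1, a fatty acid omega-hydroxylase. Cyp4a1 read 11.66, 11.70, 11.64 and 11.75 at 500 mg/kg, against 11.18, 10.77, 10.98 and 10.64 in vehicle livers. Its groups did not overlap, and the log2 difference was 0.79 (SE 0.15, limma adjusted p = 0.0249). The fitted difference was above 0 in 32 of the 38, with a median of 0.12, beside 52.8% and 0.01 for all genes. Cyp2c11, the major male-specific P450 of rat liver, differed by 0.16 (adjusted p = 0.573).

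**Figure D4:**
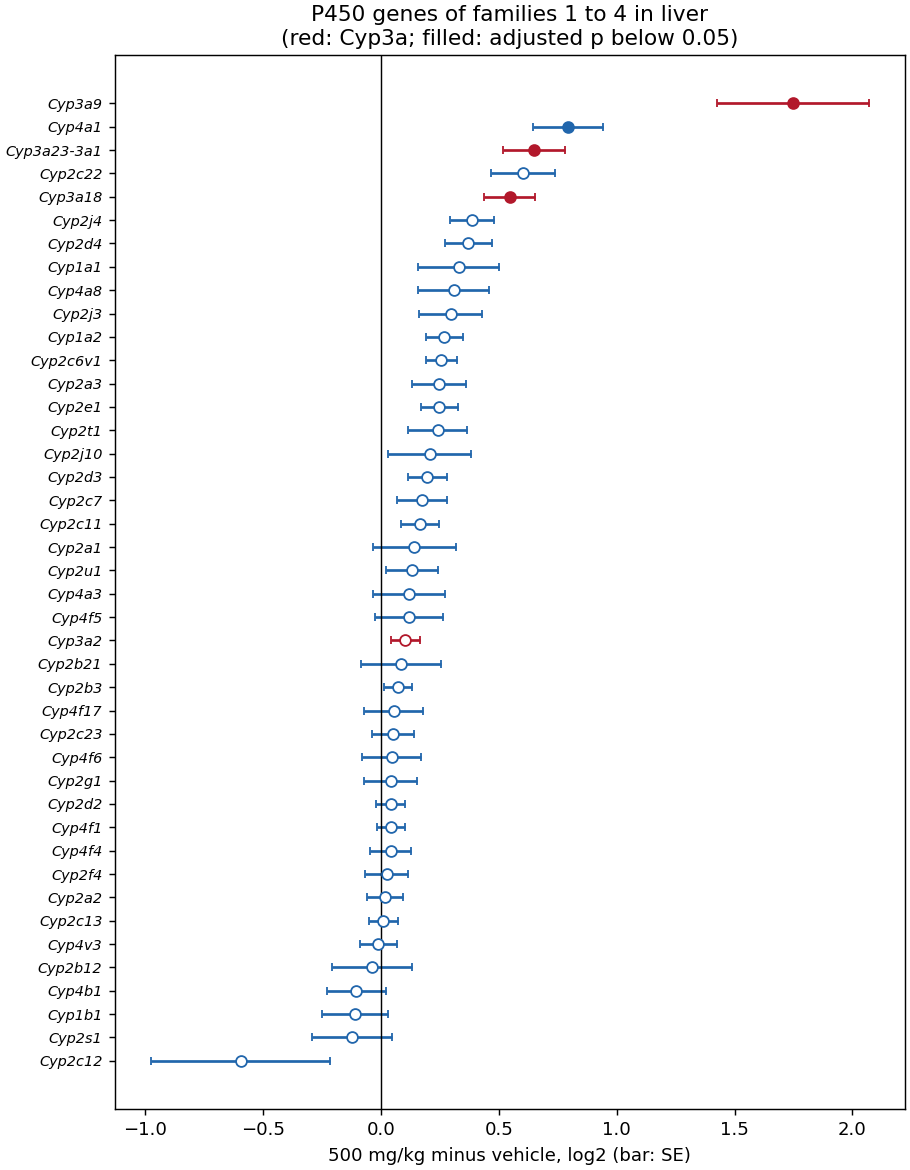
Log2 difference of 500 mg/kg from vehicle livers (x axis, bars are the limma SE) for the 4 Cyp3a genes (red) and 38 other P450 genes of families 1 to 4 (blue). Filled points passed an adjusted p of 0.05: Cyp3a9, Cyp3a23-3a1, Cyp3a18 and, among the others, Cyp4a1.

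The receptors and regulators of Cyp3a showed no call. Of 23 measured genes 0 passed in limma at 500 mg/kg in liver, and 2 had an unadjusted p below 0.05, a share close to the 8.99% of all probe sets. Nr1i2, the gene of PXR, averaged 8.58 ± 0.05 at 500 mg/kg and 8.52 ± 0.17 in vehicle livers (SD, n = 4 each), a difference of 0.07 (adjusted p = 0.873). Nr1i3, the gene of the constitutive androstane receptor (CAR), which shares targets with PXR, differed by 0.26 (SE 0.25, adjusted p = 0.822). At 300 mg/kg the differences were -0.04 for Nr1i2 and -0.11 for Nr1i3, neither past the threshold (limma adjusted p = 0.924 and 0.936).

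Of 15 electron donors and heme genes, 1 rose at 500 mg/kg in liver, with 13 of the 15 above vehicle and a median of 0.14, beside 0.119% of probe sets called higher, 52.8% of all genes above vehicle and a median of 0.01. An unadjusted p below 0.05 was seen in 4 of the 15, beside 8.99% of all probe sets. Blvrb, a flavin and biliverdin reductase that acts downstream of heme breakdown, read 10.62, 10.55, 10.48 and 10.54 in 500 mg/kg livers, against 9.94, 10.06, 10.08 and 9.93 in vehicle livers. Its groups were far apart for their spread (log2 difference 0.55, SE 0.09, limma adjusted p = 0.00916). Por, the reductase that passes electrons to P450 enzymes, differed by 0.30 (SE 0.16, adjusted p = 0.626).

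Among 20 other genes induced through PXR or CAR, 1 rose at 500 mg/kg, 15 were above vehicle, the median was 0.17 and 8 had an unadjusted p below 0.05, beside the same shares over the whole array. Ces2c, a carboxylesterase, read 8.22, 8.11, 8.28 and 8.46 at 500 mg/kg, against 7.62, 7.25, 7.47 and 7.31 in vehicle livers. The groups did not overlap, with a log2 difference of 0.85 (SE 0.17, limma adjusted p = 0.0306). Limma called 0 of 17 growth hormone and sex-dependent genes, 0 of 10 central lobule genes and 0 of 11 portal lobule genes. At an unadjusted p below 0.05 the counts were 1, 4 and 1, beside 8.99% of all probe sets. Their medians were 0.00, 0.23 and 0.00.

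At 300 mg/kg none of the members of these 6 lists or of the other P450 genes passed in liver in limma. An unadjusted p below 0.05 was seen there for 4 of 23 regulators, 2 of 15 electron donor and heme genes, 5 of 20 other PXR or CAR genes, 2 of 17 growth hormone and sex-dependent genes, 0 of 10 central and 1 of 11 portal lobule genes and 2 of 38 other P450s, beside 9.83% of all probe sets. In the slope over dose levels 3 passed in limma, all higher, beside 0.168% of all probe sets. They were Blvrb (0.07 per level, adjusted p = 0.0232), Thrsp, a lipogenic regulator on the PXR or CAR list (0.23, adjusted p = 0.0212), and the P450 Cyp2c22 (0.09, adjusted p = 0.0326). In their lists 6 of 15, 10 of 20 and 8 of 38 genes had an unadjusted slope p below 0.05. In the regulator, growth hormone, central and portal lists 2 of 23, 2 of 17, 2 of 10 and 1 of 11 did. Over all probe sets 11.2% did. Single arrays decided the calls of Ces2c, Cyp4a1, Blvrb, Thrsp and Cyp2c22 too. Without 500 mg/kg replicate 4, Ces2c had an adjusted p of 0.143, Cyp4a1 of 0.0959, and the slopes of Blvrb, Thrsp and Cyp2c22 of 0.0793, 0.0793 and 0.0994. Without vehicle replicate 4, Blvrb at 500 mg/kg had an adjusted p of 0.0551.

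In kidney all 4 Cyp3a probe sets were near the bottom of the array's range. Their means over 17 arrays were 3.37 for Cyp3a9, 3.26 for Cyp3a18, 3.16 for Cyp3a23-3a1 and 3.15 for Cyp3a2, above 13.0% to 17.1% of probe sets. The 2 organs had different value distributions, with an upper quartile of 7.14 to 7.26 in liver arrays and 7.33 to 7.48 in kidney arrays, so their levels stand side by side without a test.

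Limma called 0% of probe sets at any dose in kidney and 0% in the kidney slope, and none of the 4 genes. At an unadjusted p below 0.05 the counts over all probe sets ran from 1123 at 300 mg/kg to 3131 at 500 mg/kg, with 2205 for the slope. Of the 4 genes, 1 was below it in the slope (Cyp3a9, 0.07 per level, limma adjusted p = 0.673), 2 at 1 mg/kg (Cyp3a2 and Cyp3a18, where 2168 probe sets were) and 0 at each of the 5 other doses. Cyp3a9 read 3.62, 3.48 and 3.65 in the 500 mg/kg kidneys, against 3.52, 2.77 and 3.49 in vehicle kidneys. The groups overlapped, and the low vehicle value is that of replicate 2, the kidney with Xist signal. The difference was 0.32 (SE 0.21, adjusted p = 0.635), and 0.07 without that array. Cyp3a23-3a1 read 2.88, 2.99 and 2.87 at 500 mg/kg, against 2.87, 3.38 and 3.47 in vehicle kidneys (difference -0.33, SE 0.37, adjusted p = 0.811). Cyp3a18 read 3.15, 3.20 and 3.00 at 500 mg/kg, against 3.21, 2.80 and 2.93 in vehicle kidneys, and these overlapped (difference 0.13, adjusted p = 0.915).

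Cyp3a2 read 2.90, 2.92 and 2.84 in the 500 mg/kg kidneys, against 2.67, 2.74 and 2.74 in vehicle kidneys. Here the groups did not overlap, but the difference was only 0.17, with an SE of 0.75 (limma adjusted p = 0.961, and 0.664 without the 1 mg/kg array described next). The SE includes the spread of that 1 mg/kg array. These values lie near the bottom of the array's range, and the share of all probe sets whose kidney groups part in this way is not given here.

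Cyp3a2 stood out in a single kidney. It read 7.50 in kidney 1 mg/kg replicate 1 and at most 3.32 in every other kidney array. Cyp3a23-3a1 read 4.88 and Cyp3a18 read 4.53 there, also the highest of all kidneys, while Cyp3a9 read 3.07. This is the array with high hepatocyte markers described above. With it the difference of 1 mg/kg from vehicle was 2.38 for Cyp3a2, 0.84 for Cyp3a18 and 0.58 for Cyp3a23-3a1 (limma adjusted p = 0.672, 0.672 and 0.807). Without it the differences were -0.025, 0.15 and -0.48. With it alone at 1 mg/kg, replicate 2 left out, they were 4.78, 1.54 and 1.64. Either way 1 array is left at 1 mg/kg, which has no spread of its own, so no test is given for these differences.

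**Figure D5:**
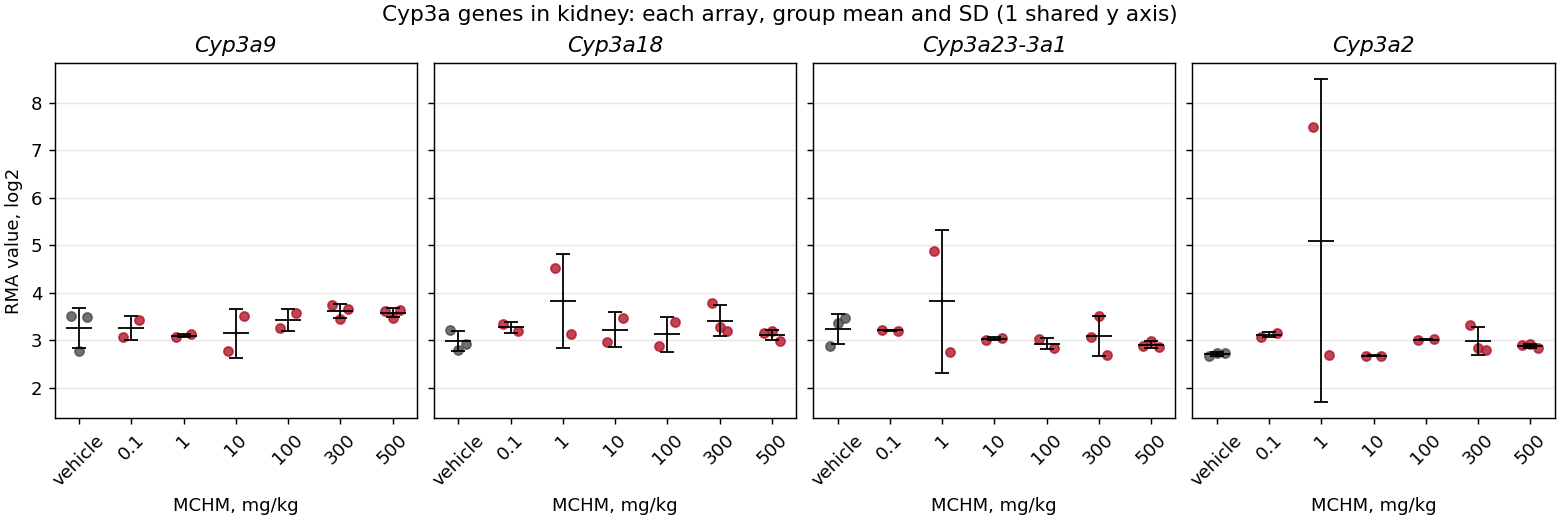
RMA values (log2, 1 shared y axis) of the 4 Cyp3a genes in every kidney array by MCHM dose (x axis). Points are arrays, the long dash is the group mean and the bar is 1 SD. All arrays but 1 lie between 2.67 and 3.78, and that array, at 1 mg/kg, reaches 7.50 for Cyp3a2.

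The change in liver was also set against the change in kidney. At 500 mg/kg the liver change exceeded the kidney change by 1.43 for Cyp3a9 (SE 0.45, limma adjusted p = 0.193) and by 0.98 for Cyp3a23-3a1 (SE 0.35, adjusted p = 0.265). For Cyp3a18 the difference was 0.42 (adjusted p = 0.65) and for Cyp3a2 it was -0.07 (adjusted p = 0.989). None passed, 2 of the 4 had an unadjusted p below 0.05, beside 9.91% of all probe sets, and 0.029% of all probe sets were called. This fit takes the 44 arrays as independent. The labels do not say whether a liver and a kidney array of the same dose and number come from 1 rat, and Xist was high in vehicle replicate 2 of both organs. With the shared number as 1 animal (a random block) the limma adjusted p values were 0.17 for Cyp3a9, 0.624 for Cyp3a18, 0.242 for Cyp3a23-3a1 and 0.988 for Cyp3a2. Without vehicle replicate 2 of both organs the difference was 1.61 for Cyp3a9 (limma adjusted p = 0.529) and 0.88 for Cyp3a23-3a1 (0.731). At 300 mg/kg 0% of probe sets were called, and none of the 4 genes, with 1961 probe sets and 0 of the 4 genes at an unadjusted p below 0.05. A rise in liver that passed and a kidney change that did not are thus not shown to differ.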

How the data were processed

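The deposited table holds log2 expression values that the authors made with RMA, per the submitters' processing notes. RMA corrects background, quantile-normalizes arrays and summarises probes into probe sets. Version, software and whether the organs were normalized jointly are not given in the sources read. RMA compresses changes of dim probe sets. Of 31099 probe sets, 57 controls were left out. In the platform annotation 20826 have 1 gene, 436 several and 9780 none, and 20758 matched GRCr8 genes by ID.

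These values were fitted with limma 3.58.1 (R 4.3.3), the 7 dose groups of each organ together, and all 44 arrays for the organ difference, with Benjamini-Hochberg adjustment over 31042 probe sets and a threshold of 0.05. The scripts were tested on simulated data. Named genes are the 4 members, Nr1i2, Nr1i3, Por and Cyp2c11 (Cyp2b2 has no probe set of its own). Up to 3 list or P450 genes past the threshold per comparison, with the smallest p, are named too. So are the 3 most alike genes per member, other members left out. A list gene stands for its brightest probe set. Motifs were found by letter matching and promoters aligned with Biopython. The members, lists and comparisons were chosen with earlier results of these data known. The vehicle organs were not tested against each other because their value distributions differ. The title of 1 kidney array, dosed at 10 mg/kg, lacks a replicate number, so block fits omit it. No pairs of arrays were identical.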

Additional observations from a re-analysis of the deposited data

Results flagged for a closer look

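An array that stood apart from the other 3 of its liver group was looked for in 114 groups of 4 arrays by Dixon's criterion, which chance alone passes in about 1 group in 20. Cyp3a2 read 13.91 in 1 mg/kg replicate 4, above the other 3 by 0.864 of the group's range. Xist read 11.00, 8.81, 9.12 and 8.25 on its 4 probe sets in vehicle replicate 2, above the rest of the vehicle livers. Nr1i3 read 7.76 in 500 mg/kg replicate 4, below the other 3. Cyp2c22 read 12.49 in 1 mg/kg replicate 4, and Cyp4a1 read 10.49 in 100 mg/kg replicate 1, each apart from the other 3 arrays of its dose.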

How the results depend on the processing

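The number of Cyp3a genes called at 500 mg/kg in liver was 3, and ranged from 0 to 3 when 1 array was left out. A fit of only these 2 groups called 0. For the slope the number was 1, from 0 to 3 with 1 array left out. It was 3 with the probe sets above the median mean or with the dose in mg/kg. It was 2 with an intensity trend and robust prior and 2 with a replicate block. These numbers stand without the share of all probe sets called in each alternative fit. Same-numbered dosed and vehicle arrays shared no consistent deviation (r = -0.112 to 0.125 in liver, -0.245 to 0.364 in kidney). A shared block is thus not shown, and this check cannot exclude one. With the replicate block 2 of the 4 passed at 500 mg/kg, Cyp3a23-3a1 no longer doing so (adjusted p = 0.0544). In kidney at 1 mg/kg the number was 0. Counts from fits that leave 1 array in that group are not given. The pairwise changes of Cyp3a9 kept their sizes in the paired exact sign-flip test (1.20, 1.10 and 1.65), whose smallest possible p is 0.125, so it cannot pass. Values that changed sign were Cyp3a23-3a1 at 100 mg/kg (-0.017 without vehicle replicate 3, highest 0.24), Cyp3a2 (-0.025 to 4.78) and Cyp3a23-3a1 (-0.48 to 1.64) in kidney at 1 mg/kg, and, at 300 mg/kg in liver, Nr1i2 (-0.091 to 0.029) and Nr1i3 (-0.35 to 0.037) with 1 array left out. The causes of these shifts were not tested beyond the arrays left out. At 500 mg/kg in liver 6 of 13 alternatives kept Cyp3a9 past the threshold, 6 of 13 Cyp3a18 and 4 of 13 Cyp3a23-3a1. The mean of all probe sets per gene equals the single probe set, and the setting above the median mean gave no kidney value because the 4 probe sets lie below that median. The correlation of Cyp3a2 and Mtdh was 0.51 after a second quantile normalization. Kidney groups of 2 or 3 arrays limit the precision there, and signal over background was not given in the files used here.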
